A study of Mus musculus with 51 samples.

Results

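Gonads of 3-day-old (P3) mice whose only Dmrt1 product was the R111G protein (Dmrt1 R111G/-) were compared with gonads lacking DMRT1 (Dmrt1 -/-). The 6 libraries were chosen by their column names in the deposited count table, R111G/- replicates 1 to 3 against Dmrt1 -/- replicates 1 to 3, and are 6 of the 30 RNA-seq libraries and of the 51 samples of the series. The comparison asks whether a protein with the R111G change in its DNA-binding domain still acts on gonadal genes when no other DMRT1 is present. Another set of 6 libraries, R111G/+ and Dmrt1 +/-, came from the same age and tissue and made the same exchange of the deleted allele for R111G beside a normal allele.

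All 4 genotypes (Dmrt1 -/-, R111G/-, +/- and R111G/+, 3 libraries each) were whole gonads of mixed 129Sv and C57Bl/6J mice at P3, and each except R111G/+ carried at least 1 deleted Dmrt1 allele. The R111G line descends from 1 correctly edited founder, so the effect of the edit and that of sequence linked to it on chromosome 19 cannot be told apart. No label states whether replicates came from separate animals, and p-values measure only the spread between these libraries. Because whole gonads were sequenced, fewer cells of a type and less RNA per cell cannot be told apart.

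DMRT1 is a transcription factor of Sertoli and germ cells, and it holds Sertoli cells in their male fate after the gonad has formed. It binds DNA through a DM domain, a zinc-binding fold with a recognition helix that enters the grooves of DNA, and several DMRT1 molecules can share 1 site. The arginine altered in R111G lies in this recognition region, and the human change is associated with gonadal dysgenesis in XY people.

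The coding sequence around the edited codon is shown because it holds the residue that the R111G allele changes. In the reference (GRCm38, plus strand, chr19:25506133-25506201, coding exon 1 of 5 of Dmrt1-201) the codon that the study's repair template alters is the CGA in capitals, 5′ to 3′:
Dmrt1: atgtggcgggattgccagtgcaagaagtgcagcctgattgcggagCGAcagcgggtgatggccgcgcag
This arginine is residue 109 of the 374 in that transcript, so the number in the allele's name does not count from the start of this mouse transcript. The residue that has that number here is another arginine, the cgg that follows cag.

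Library totals were 7815162 to 8643604 counts for Dmrt1 -/- and 7423871 to 8249264 for R111G/-. Sertoli markers marked the tissue in both groups: 33 tested Sertoli genes summed to 5909 to 6172 CPM (counts scaled to a common library total) in Dmrt1 -/- and 5094 to 6350 CPM in R111G/-, and 4 Y-linked genes were present in all libraries. On the second principal component over the 12 libraries (16.6% of the variance), R111G/- replicate 2 stood at 20.0 and replicates 1 and 3 both at -32.9. The libraries of the other genotypes lay between -13.0 and 31.9, so replicate 2 was inside their range and replicates 1 and 3 were below it. Values without replicate 2 therefore rest on the outermost libraries. Where leaving out replicate 2 changed the call of a gene named below, the value without it is given beside that gene.

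Dmrt1 RNA itself was at 3.11, 2.24 and 3.54 CPM in the Dmrt1 -/- libraries and at 66.0, 79.4 and 55.6 CPM in R111G/-. The +/- libraries, which carry 1 normal allele, held 55.9, 86.3 and 73.7 CPM. R111G/- and +/- overlapped, and the R111G allele gave 93.1% of the mean +/- level (log2 difference -0.10, 95% interval -0.48 to 0.28). Against Dmrt1 -/- the log2 fold change was 4.48 ± 0.24 (SE, n = 3 and 3; edgeR's quasi-likelihood test with Benjamini-Hochberg adjustment, adjusted p = 1.2e-06). The targeted gene thus matched the labels of all 6 libraries.

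Few other genes differed. Of 15837 genes tested, 28 (0.177%) passed an adjusted p of 0.05 with more than a 2-fold change, the rule used for every call below, and 19 were higher (0.12%) and 9 lower (0.0568%) in R111G/-. Without the fold limit 41 genes (0.259%) passed, 27 higher and 14 lower, and 1199 had an unadjusted p under 0.05. The median log2 fold change over all genes was 0.00. The 3 and 3 libraries did not overlap for each of the 28 genes, and for 1891 (11.9%) of all genes tested.

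The count of called genes moved with single libraries. It was 57 without R111G/- replicate 2, 13 without replicate 1 and 18 without replicate 3. It was 14, 16 and 9 without Dmrt1 -/- replicates 1, 2 and 3. Dmrt1, Rarres1, Emb, Sh3gl2, Mybpc3, Fndc5, Clec12b and Plppr4 kept their call in all 12 settings tried, and the other 20 genes lost it in 1 or more, none with a change of sign.

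The 8 genes are spread over the genome (GRCm38, GENCODE M21 gene spans). Rarres1 lies at chr3:67478972-67515523, Plppr4 at chr3:117319139-117360876, Sh3gl2 at chr4:85205126-85639195 and Fndc5 at chr4:129136999-129144593. Clec12b lies at chr6:129375515-129385874, Emb at chr13:117208536-117274415, Mybpc3 at chr2:91118144-91136516 and Dmrt1 at chr19:25505618-25604329.

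**Figure D1:**
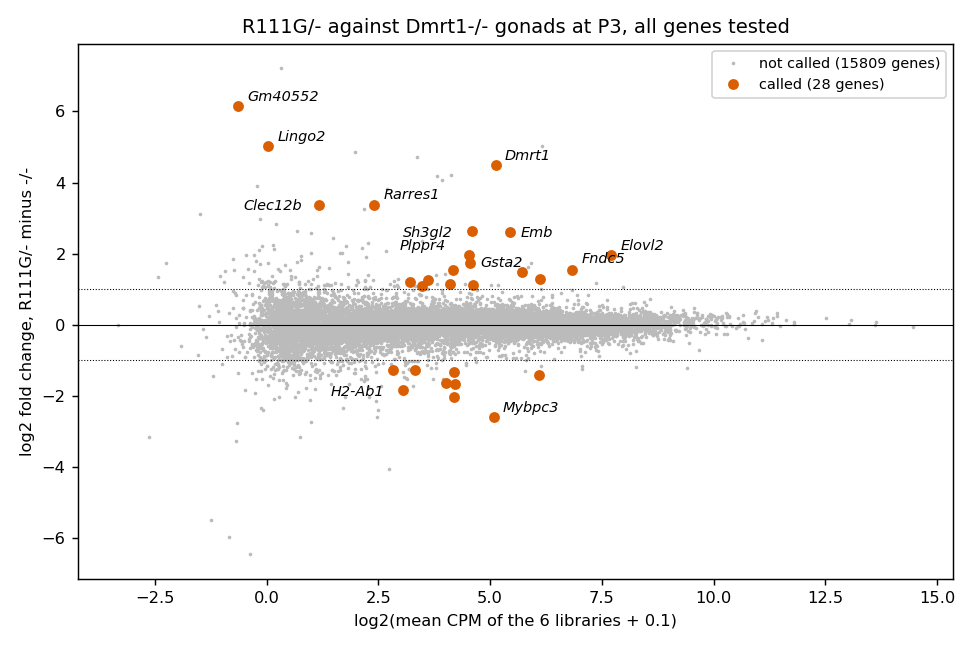
Log2 fold change of R111G/- minus Dmrt1 -/- (y axis) against the log2 mean CPM of the 6 libraries with 0.1 added (x axis), 1 point per gene tested. The 28 called genes are in orange, dotted lines mark a 2-fold change, and 19 called genes lie above and 9 below zero; the grey points did not pass both limits of the rule.

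A first set of genes was low in Dmrt1 -/- and had R111G/- libraries that overlapped those of +/-. Sh3gl2, which encodes endophilin A1 of synaptic vesicle uptake, was at 8.83, 6.58 and 4.68 CPM in Dmrt1 -/-, at 39.3, 45.0 and 39.2 CPM in R111G/-, and at 53.6, 34.2 and 45.5 CPM in +/-. All R111G/- libraries were above all Dmrt1 -/- libraries and inside the range of +/-. The log2 fold change was 2.62 ± 0.22 against Dmrt1 -/- (adjusted p = 1.0e-04) and -0.11 against +/- (95% interval -0.53 to 0.30).

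Plppr4, a phospholipid phosphatase-related membrane protein of neurons, also overlapped +/-. It was at 8.96, 9.21 and 10.1 CPM in Dmrt1 -/- and at 29.1, 54.0 and 25.8 CPM in R111G/-, with replicate 2 the highest (log2 fold change 1.95 ± 0.25, adjusted p = 0.0057; mean +/- level 44.0 CPM). Without that library its log2 fold change was 1.54 (adjusted p = 0.0014). Fgf13, an intracellular FGF-homologous factor that binds sodium channels, was at 8.59, 10.3 and 8.68 CPM against 23.6, 33.5 and 23.1 CPM (1.55 ± 0.22, adjusted p = 0.010). Its mean stayed under the 36.2 CPM of +/-, a log2 difference of -0.44 whose 95% interval (-0.87 to -0.0039) does not reach 0, with an adjusted p of 0.73.

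The mitochondrial acetyl-CoA synthetase Acss1 rose 2.38-fold (fold changes are those of the fit) to a mean of 17.2 CPM, beside 19.6 CPM in +/-. The class A scavenger receptor family member Scara3 rose 2.11-fold to 15.0 CPM, beside 14.4 CPM in +/-. Msrb3, a methionine sulfoxide reductase, rose 2.43-fold to 98.9 CPM, beside 76.5 CPM in +/-. In these 3 genes the R111G/- and +/- libraries also overlapped. Fgf13 and Msrb3 lost their call without Dmrt1 -/- replicate 1 or 3 (highest adjusted p 0.068 and 0.065), and Acss1 and Scara3 in 5 and 7 of the 12 settings (highest 0.086 and 0.13).

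A second set was raised in R111G/- but only part of the way to +/-. Rarres1, a retinoic acid-responsive gene, was at 1.00, 0.66 and 1.03 CPM in Dmrt1 -/-, at 10.4, 8.86 and 9.22 CPM in R111G/-, and at 21.0, 24.8 and 25.9 CPM in +/-. The 3 groups did not overlap. R111G/- was 3.38 ± 0.22 log2 units above Dmrt1 -/- (adjusted p = 9.3e-06) and 1.33 below +/- (log2 fold change -1.33, adjusted p = 0.0021), at 39.8% of the +/- mean.

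Clec12b, an inhibitory C-type lectin receptor, was at 0.25, 0.53 and 0.34 CPM in Dmrt1 -/- and at 2.37, 4.73 and 4.75 CPM in R111G/- (log2 fold change 3.37 ± 0.42, adjusted p = 0.0050). In +/- it stood at 18.2, 17.1 and 14.5 CPM, so that R111G/- reached 23.8% of that mean (log2 fold change against +/- -2.07, adjusted p = 0.0043). All 3 groups were again separate, with R111G/- nearer to Dmrt1 -/- on the linear scale.

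Gm14569, a protein-coding gene of the X chromosome, was at 14.7, 16.4 and 15.0 CPM in Dmrt1 -/-, at 31.1, 37.5 and 31.1 CPM in R111G/- and at 70.4, 61.0 and 86.8 CPM in +/-. The log2 fold change was 1.11 ± 0.15 against Dmrt1 -/- (adjusted p = 0.0085) and -1.13 against +/- (adjusted p = 0.0022). Without Dmrt1 -/- replicate 1 or 3 its call against Dmrt1 -/- was lost (highest adjusted p 0.055). The comparisons with Dmrt1 -/- and with +/- share the R111G/- libraries, so the values stand side by side and are not independent.

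**Figure D2:**
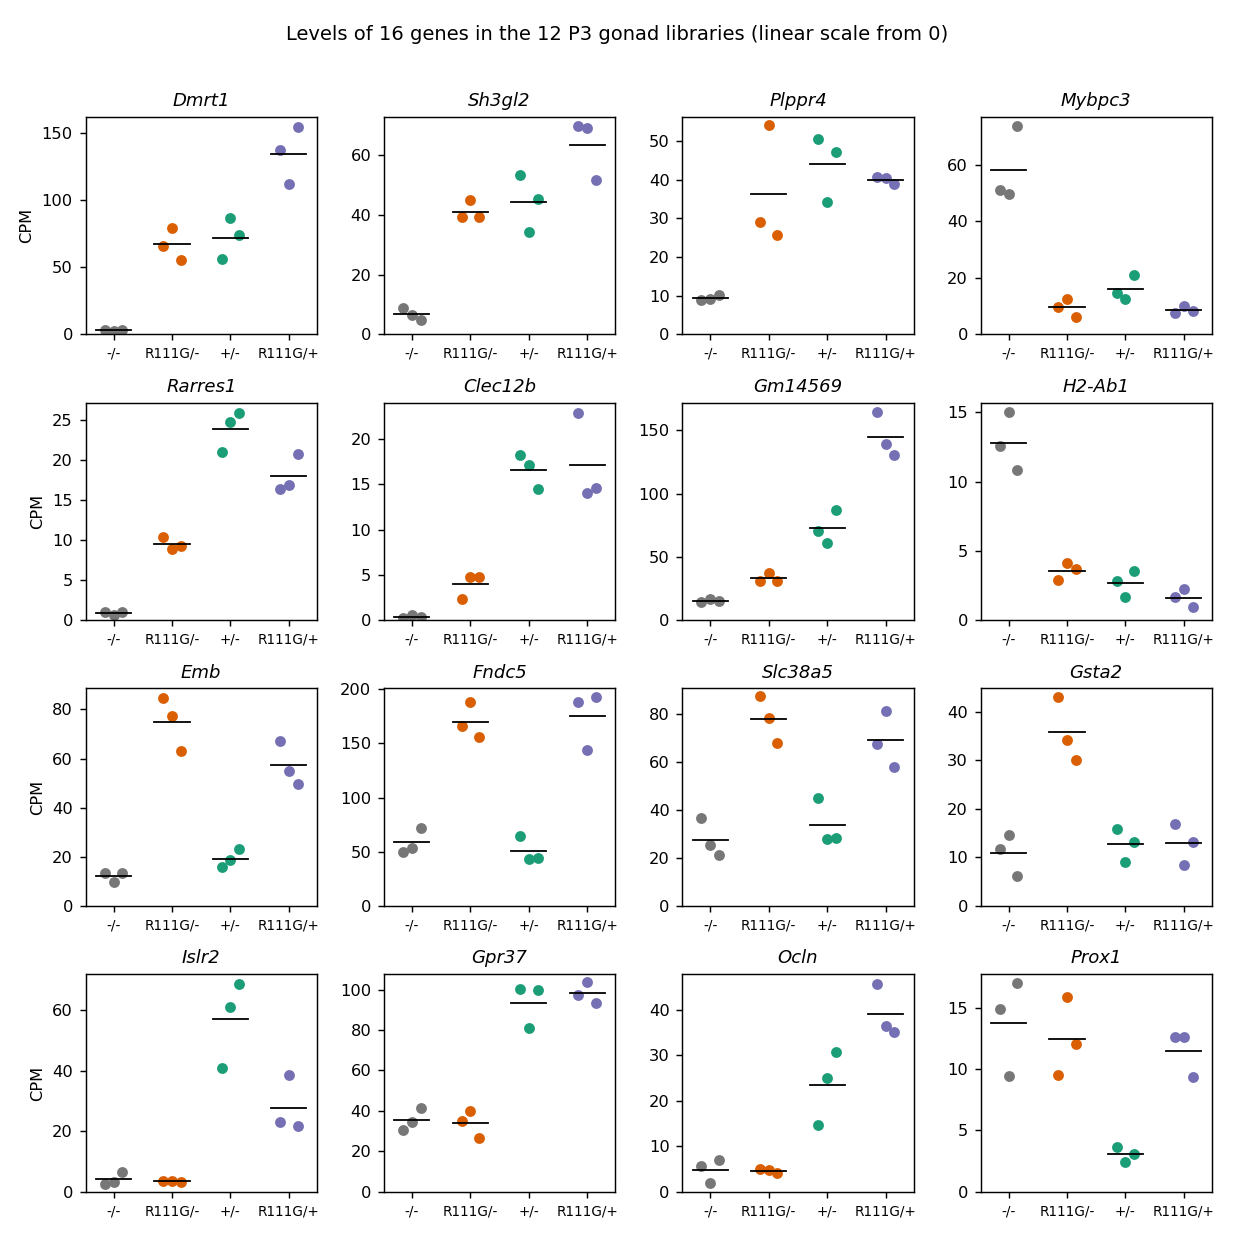
CPM (y axis, linear from 0) of 16 genes in the 12 P3 gonad libraries, with 1 point per library and a bar at each group mean. Sh3gl2 and Plppr4 in R111G/- overlap +/-, Rarres1, Clec12b and Gm14569 lie between the groups, Emb, Fndc5 and Slc38a5 lie above both, and Islr2, Gpr37, Ocln and Prox1 overlap Dmrt1 -/-.

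A different set of genes was highest in Dmrt1 -/- and fell in R111G/-, and none passed the test against +/-. In 4 of the 9 lower genes, Ankrd63, Ptk2b, Rasgef1b and Plcb2, all R111G/- libraries lay below all +/- libraries. Rasgef1b means were 37.4 CPM in R111G/- and 66.3 CPM in +/- (adjusted p = 0.38), and Plcb2 means 4.08 and 6.63 CPM (0.50). Of the others, 3 had R111G/- means below +/- with overlap, and 2 had means between the groups. Mybpc3, cardiac myosin-binding protein C, was at 51.1, 49.7 and 73.6 CPM in Dmrt1 -/- and at 9.76, 12.6 and 6.10 CPM in R111G/- (log2 fold change -2.61 ± 0.26, adjusted p = 4.5e-04). The +/- libraries were at 14.8, 12.6 and 20.9 CPM, and the R111G/- level did not pass the test against them (-0.75, adjusted p = 0.55). Mybpc3 thus had the largest fitted fall of the 9 lower genes, 6.10-fold.

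Ankrd63, an ankyrin repeat protein, fell 4.09-fold, from 23.1, 24.2 and 40.1 CPM to 6.72, 6.92 and 7.73 CPM (adjusted p = 0.0090). Its neighbour Plcb2, a phospholipase C of G protein signaling, lies on the same strand of chromosome 2 with 3554 bases between the gene spans, and fell 2.41-fold, from a mean of 9.85 to 4.08 CPM (adjusted p = 0.038). The counts of 2 genes this close may share reads that run past a transcript's end, and their changes are not separate observations. The homologous Plcb1, also on chromosome 2 but far from Plcb2, moved the other way, from 5.55 to 12.7 CPM (1.20 ± 0.22, adjusted p = 0.042). The Plcb1 call was lost in 9 of the 12 settings, every leave-one-out setting among them (1.09, adjusted p = 0.062 without R111G/- replicate 2), that of Plcb2 in 7 and that of Ankrd63 without R111G/- replicate 1 (adjusted p 0.055).

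Ptk2b, a calcium-responsive focal adhesion kinase, fell 3.20-fold from a mean of 28.2 to 8.80 CPM, and the hyaluronan-degrading protein Cemip fell 2.50-fold from 25.8 to 10.3 CPM. Unc13d, a priming factor for vesicle release, fell 3.11-fold from 24.2 to 7.76 CPM. Rasgef1b, a guanine nucleotide exchange factor of Ras-like proteins, fell 2.66-fold from 99.5 to 37.4 CPM, and Bmerb1, named for its bMERB domain, fell 2.40-fold from 14.0 to 5.84 CPM. In Dmrt1 -/- replicate 3 Ptk2b, Cemip and Unc13d had their highest values (39.5, 33.1 and 31.6 CPM), and all 3 calls were lost without that library. All 3 were also lost without R111G/- replicate 1 and with only the 6 libraries compared. In all, Ptk2b was lost in 4 of the 12 settings, Cemip in 3 and Unc13d in 6 (highest adjusted p 0.072, 0.067 and 0.11). The calls of Rasgef1b and Bmerb1 were lost in 7 of the 12 settings (highest adjusted p 0.18 and 0.15), for Rasgef1b also without R111G/- replicate 2 (log2 fold change -1.34, adjusted p = 0.058).

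H2-Ab1, a chain of the MHC class II molecule that presents antigen, was at 12.6, 15.0 and 10.8 CPM in Dmrt1 -/- and at 2.90, 4.13 and 3.66 CPM in R111G/- (log2 fold change -1.84 ± 0.31, adjusted p = 0.028). The other class II chains, looked up after this value was seen, were lower by similar amounts without passing the test: H2-Aa differed by -1.52 log2 units (adjusted p = 0.086) and H2-Eb1 by -1.74 (adjusted p = 0.077). Macrophages can carry class II. Of 13 macrophage markers none was called and 12 had positive log2 fold changes in R111G/-. Their summed levels overlapped, at 109 to 210 CPM in Dmrt1 -/- and 173 to 282 CPM in R111G/-. The cell source of the class II RNA was not tested. The H2-Ab1 call was lost in every leave-one-out setting but that without R111G/- replicate 2 (highest adjusted p 0.16).

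Another set stood above both Dmrt1 -/- and +/-. Emb, the cell adhesion and transporter-chaperone protein embigin, was at 13.4, 9.73 and 13.4 CPM in Dmrt1 -/-, at 84.8, 77.4 and 62.9 CPM in R111G/- and at 15.8, 18.7 and 23.1 CPM in +/-. The lowest R111G/- library was above every library of both other groups. The log2 fold change was 2.62 ± 0.18 against Dmrt1 -/- (adjusted p = 1.2e-05) and 1.97 against +/- (adjusted p = 2.5e-04).

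Fndc5, which encodes the precursor of the secreted peptide irisin, was at 50.1, 53.9 and 72.0 CPM in Dmrt1 -/-, at 166, 188 and 156 CPM in R111G/-, and at 64.3, 43.6 and 44.5 CPM in +/-. Dmrt1 -/- and +/- overlapped, and R111G/- was 1.53 ± 0.18 log2 units above the first (adjusted p = 0.0026) and 1.74 above the second (adjusted p = 7.5e-04). Slc38a5, an amino acid transporter of the SNAT family, was at 36.5, 25.4 and 21.1 CPM in Dmrt1 -/- and at 87.3, 78.4 and 67.8 CPM in R111G/- (1.49 ± 0.22, adjusted p = 0.012). It was also above +/- (1.20, adjusted p = 0.039), and its call against Dmrt1 -/- was lost in 3 leave-one-out settings (highest adjusted p 0.078).

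Several genes lay above both groups in their means without passing the test against +/-. Elovl2, an elongase of very long-chain polyunsaturated fatty acids, was at 91.3, 99.8 and 66.1 CPM in Dmrt1 -/- and at 282, 430 and 289 CPM in R111G/- (1.96 ± 0.30, adjusted p = 0.017). One +/- library reached 282 CPM and the other two 109 and 154 CPM. The call was lost without any 1 of the Dmrt1 -/- libraries (highest adjusted p 0.10).

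Gsta2, a glutathione S-transferase, was at 11.8, 14.6 and 6.16 CPM in Dmrt1 -/-, at 43.0, 34.2 and 30.1 CPM in R111G/-, and at 15.8, 9.03 and 13.2 CPM in +/-. The R111G/- libraries were above all other libraries, R111G/+ included (17.0, 8.49 and 13.2 CPM). Its log2 fold change was 1.73 ± 0.31 (adjusted p = 0.038), lost in 7 of the 12 settings. Gsta genes are close copies of each other, and reads could be split among them.

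Lingo2, a leucine-rich repeat membrane protein, had 1 count over the 3 Dmrt1 -/- libraries and 42 over the R111G/- libraries, a ratio of 43.7 per total count with an exact 95% interval of 7.42 to 1765 that covers counting error only. The long non-coding RNA Gm40552 had 0 and 25 counts, at least 8.66-fold higher when 3 counts over the group are taken as the floor. Both were also low in +/- (means of 0.23 and 0.59 CPM) and higher in R111G/+ (3.44 and 6.91 CPM). Both calls were lost in 6 settings.

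**Figure D3:**
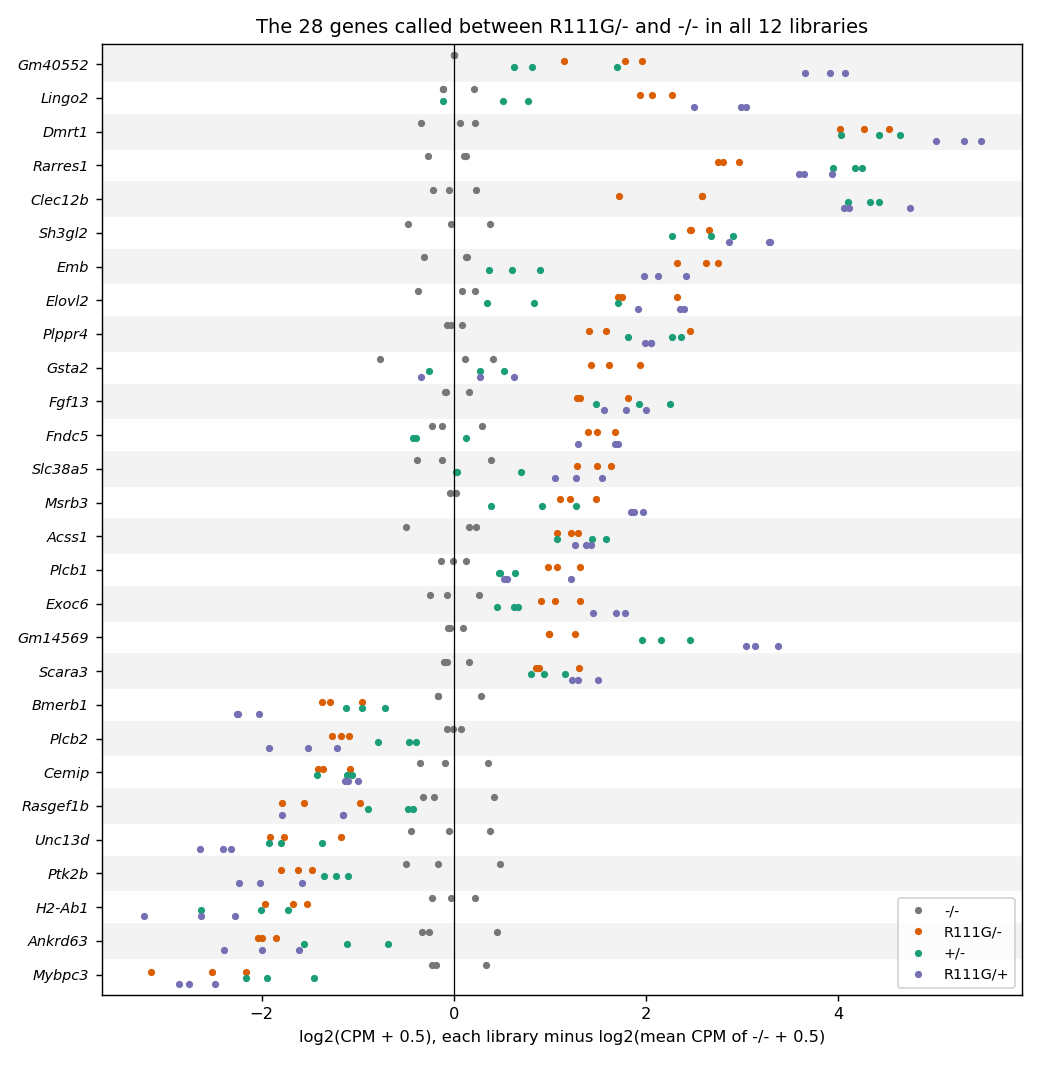
Log2(CPM + 0.5) of the 28 called genes in each of the 12 P3 libraries, relative to the Dmrt1 -/- mean of the gene (x axis, zero line), with genes ordered by log2 fold change of R111G/- (y axis) and 1 point per library. The orange R111G/- points are separate from the grey Dmrt1 -/- points in every row, and their place relative to the green +/- points differs between genes.

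Other genes with a large difference between +/- and Dmrt1 -/- gave no call between R111G/- and Dmrt1 -/-. Islr2, a leucine-rich immunoglobulin-domain membrane protein, was at 2.7, 3.2 and 6.4 CPM in Dmrt1 -/-, at 3.6, 3.5 and 3.3 CPM in R111G/-, and at 41.0, 61.1 and 68.5 CPM in +/-. R111G/- lay 4.04 log2 units below +/- (log2 fold change -4.04, adjusted p = 2.0e-04), and its difference from Dmrt1 -/- was -0.26 with a 95% interval of -1.08 to 0.56. The upper end of that interval is far under the 3.77 log2 units between +/- and Dmrt1 -/-.

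Gpr37, an orphan G protein-coupled receptor, lay -0.05 log2 units from Dmrt1 -/- (95% interval -0.39 to 0.28) and -1.46 from +/- (adjusted p = 7.5e-04). Ocln, the tight junction protein occludin, had -0.06 (-0.90 to 0.78) and -2.33 (adjusted p = 0.011). The X-linked protein-coding gene 4930550L24Rik had 0.45 (-0.10 to 1.01) and -2.40 (adjusted p = 3.7e-04). The homeobox factor Prox1, which was higher in Dmrt1 -/- than in +/-, had -0.15 (-0.68 to 0.39) against Dmrt1 -/- and 2.01 against +/- (adjusted p = 0.0055). The intervals of 2 further genes against Dmrt1 -/- did not reach 0, though neither passed the adjusted test. The kainate receptor auxiliary subunit Neto2 had -0.38 (-0.68 to -0.08, adjusted p = 0.51) against Dmrt1 -/- and 1.10 against +/- (adjusted p = 0.0034). Kcng2, a modifier subunit of voltage-gated potassium channels, had -0.81 (-1.39 to -0.23, adjusted p = 0.44) and -2.20 (adjusted p = 0.0018), below both groups.

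The best known sex-determining genes gave no call between R111G/- and Dmrt1 -/-. Sox9, the testis-determining SOX factor, was at 88.7, 117 and 169 CPM in Dmrt1 -/- and at 98.0, 130 and 75.7 CPM in R111G/-, and the groups overlapped (log2 fold change -0.30, 95% interval -0.78 to 0.17). Foxl2, the ovarian forkhead factor, was near the limit of detection at 1.74, 2.37 and 1.26 CPM against 0.92, 0.85 and 1.08 CPM (-0.89, 95% interval -1.80 to 0.01, adjusted p = 0.67). Sox8 had -0.15 (-0.50 to 0.20) and Nr5a1, the steroidogenic factor of gonadal somatic cells, -0.03 (-0.27 to 0.21).

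Among secreted products of Sertoli cells, Ptgds and Cst12 lay near the threshold, in opposite directions, and Cst9 did not. Ptgds, prostaglandin D2 synthase, was at 77.6, 81.9 and 76.6 CPM in Dmrt1 -/- and at 40.2, 32.5 and 22.2 CPM in R111G/-, just outside the threshold (-1.31, adjusted p = 0.051). The cystatin Cst12 was at 154, 192 and 139 CPM against 404, 217 and 393 CPM (1.06, adjusted p = 0.081), and Cst9 at 18.3, 48.4 and 16.9 CPM against 68.8, 46.9 and 162 CPM (1.74, adjusted p = 0.25). In both cystatins R111G/- replicate 2 was the lowest of its group. Without it Cst12 passed (1.30, adjusted p = 0.0091) and Cst9 did not (2.06, adjusted p = 0.058).

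By cell type and pathway the gene lists held few calls. Of 33 Sertoli genes tested 1 was called, Dmrt1 itself, and the list median was -0.06. None of 25 granulosa and ovary-determining genes (median -0.09), 15 Leydig and androgen synthesis genes (-0.01), 30 gonocyte and undifferentiated spermatogonia genes (-0.29), 17 junction genes (-0.06), 15 retinoic acid genes (0.04) or 21 cell cycle genes (0.13) was called. These medians stand beside 0.00 for all genes tested. With 0.177% of all genes called, lists of this size hold few or no calls at the background share, and the counts say little about their members.

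Several marker lists leaned to 1 side without a called member, beside 7997 positive and 7839 negative of all 15837 genes. Of 12 peritubular myoid genes, smooth muscle-like cells around the tubules, 11 were positive with a median of 0.70. Their summed level was 1970 and 2228 CPM in R111G/- replicates 1 and 3 but 1198 CPM in replicate 2, inside the 1100 to 1343 CPM of Dmrt1 -/-. Without replicate 2 the smooth muscle gene Tagln of this list passed (log2 fold change 2.01, adjusted p = 0.013). Of 13 interstitial stromal genes 12 were positive (median 0.23), and of the 21 cell cycle genes 18. All 7 erythroid genes tested were negative (median -1.21), with sums of 640 to 872 CPM in R111G/- and 948 to 3029 CPM in Dmrt1 -/-. The +/- libraries summed to 636 to 3095 CPM, a range that holds both groups. Of 17 inhibin, activin and AMH signaling genes 12 were negative and 5 positive (median -0.19). Their sums were 3614 to 4242 CPM in R111G/- and 4499 to 4764 CPM in Dmrt1 -/-, with no overlap. The +/- sums, 3154 to 4544 CPM, overlapped both.

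Germ cell lists leaned to the negative side. All 11 genes of differentiating spermatogonia were negative (median -0.31), as were 24 of the 30 gonocyte and undifferentiated spermatogonia genes. The summed levels of both lists overlapped between the groups, at 1203 to 1582 CPM in R111G/- and 1360 to 1448 CPM in Dmrt1 -/- for the first and 435 to 565 and 370 to 799 CPM for the second. The 4 adrenal cortex genes tested were also negative. The part of these cells in the 28 calls was not tested.

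An independent reference came from P7 Sertoli cells of Dhh-Cre mice, enriched by removing other cells on antibody beads, where Dmrt1 f/f cells (deleted) were compared with f/+ cells in 3 libraries each. Both carried the CAG-Stopflox-tdTomato reporter, and the control libraries are f/+ in their genotype labels but Dmrt1 +/+ in their titles. No library is shared with the P3 gonads. There 639 of 14013 genes tested (4.56%) were called, 280 lower and 359 higher in deleted cells. All 28 genes called between R111G/- and Dmrt1 -/- were tested at P7, and 20 of them (71.4%) were called there, beside 4.46% of the genes tested in both.

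The direction at P7 was opposite for all 28, that is, genes higher with R111G than with no DMRT1 were lower in deleted Sertoli cells and the reverse. The 28 genes, and the 20 of them called at P7, include Dmrt1, for which the genotypes set the direction. Over all 13562 genes tested in both, 58.3% had opposite signs. The largest P7 changes among the higher genes were those of Gm40552 (no counts in deleted cells), Clec12b (log2 fold change -6.61), Lingo2 (-5.52) and Gm14569 (-4.98), and among the lower genes those of H2-Ab1 (3.51) and Cemip (2.19). Of the genes that stood above both Dmrt1 -/- and +/- at P3, Emb fell at P7 (-2.86, adjusted p = 0.0095). Slc38a5, Elovl2, Lingo2 and Gm40552 were also called lower there, while Fndc5 had -0.51 (adjusted p = 0.17) and Gsta2 -0.84 (adjusted p = 0.48).

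Read the other way, 268 of the genes lower at P7 were tested in the P3 gonads. Of these 15 were called higher in R111G/- and 0 lower, beside 0.12% of all genes, and the list includes Dmrt1. By edgeR the list held 60 genes higher and 7 lower at an unadjusted p under 0.05. Its median log2 fold change was 0.15 for R111G/- against Dmrt1 -/-, 0.57 for +/- against Dmrt1 -/- and -0.38 for R111G/- against +/-. Of 337 genes higher at P7, 5 were called lower (beside 0.0568% of all genes) and 0 higher in R111G/- (6 higher and 72 lower at an unadjusted p under 0.05), with medians of -0.18, -0.31 and 0.13 in the same order.

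Averaged per library, the P7-lower list scored -0.45, -0.56 and -0.42 in Dmrt1 -/- and -0.18, -0.21 and -0.26 in R111G/-, in mean log2 CPM centred on the 12 libraries. The +/- libraries scored 0.12, 0.33 and 0.34. On the P7-higher list Dmrt1 -/- scored 0.29, 0.28 and 0.33, R111G/- -0.03, 0.10 and 0.03, and +/- -0.09, -0.20 and -0.04. R111G/- lay between the other 2 groups on both lists with no overlap on either side, though on the second its lowest library (-0.03) lay close to the highest of +/- (-0.04).

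**Figure D4:**
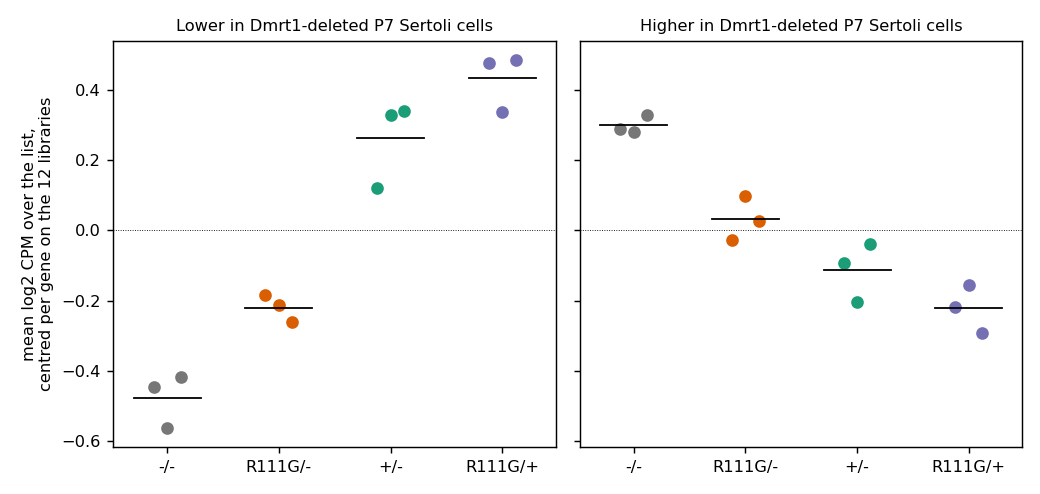
Mean log2 CPM, centred per gene on the 12 libraries (y axis), over 268 genes lower (left) and 337 genes higher (right) in Dmrt1-deleted P7 Sertoli cells, for each P3 gonad library (points) with group means (bars). R111G/- scores are separate from Dmrt1 -/- on both lists.

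The exchange of the deleted allele for R111G beside a normal allele, R111G/+ against +/-, shares no library with R111G/- against Dmrt1 -/-. The test called 21 genes (0.133%), 13 higher and 8 lower. Emb, Fndc5, Exoc6, Lingo2, Bmerb1 and Gm40552 were called in both exchanges, all in the same direction, which is 21.4% of the 28 and 28.6% of the 21. Of the 28 genes 23 (82.1%) had the same sign in R111G/+ against +/-, beside 53.5% of all genes tested. The 23 include Dmrt1, for which the genotypes set the direction.

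For Emb the log2 fold change was 2.62 beside the deleted allele and 1.58 beside the normal allele (adjusted p = 0.0020), with R111G/+ libraries at 67.2, 54.9 and 49.6 CPM. For Fndc5 it was 1.53 and 1.79 (adjusted p = 0.0010), with R111G/+ at 189, 144 and 193 CPM. Exoc6, a subunit of the exocyst that tethers secretory vesicles, was at 12.9, 8.94 and 10.2 CPM in Dmrt1 -/- and at 27.3, 20.5 and 22.7 CPM in R111G/-, and had 1.13 and 1.08 (adjusted p = 0.012 and 0.015). Its call against Dmrt1 -/- was lost in 4 settings (highest adjusted p 0.071). Bmerb1 had -1.26 and -1.39 (adjusted p = 0.027 and 0.026).

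The difference between both exchanges was itself tested, and 4 genes (0.0253%) passed (8 without R111G/- replicate 2). Beside the deleted allele R111G raised Dmrt1 by 3.58 log2 units more than beside the normal allele (adjusted p = 1.1e-04), Rarres1 by 3.78 more (5.7e-05) and Sh3gl2 by 2.11 more (0.026). Beside the normal allele Rarres1 and Sh3gl2 had log2 fold changes of -0.41 (adjusted p = 0.71) and 0.52 (0.66). Clec12b missed the threshold (difference 3.32, adjusted p = 0.0502), and Emb and Fndc5 had differences of 1.04 (adjusted p = 0.43) and -0.25 (0.97).

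The remaining gene was Capza1-ps1, a pseudogene copy of an actin capping protein gene whose reads may be split with near-identical copies. It was at 6.47, 6.97 and 4.45 CPM in Dmrt1 -/-, at 4.48, 4.98 and 4.48 CPM in R111G/-, and at 41.7, 42.5 and 39.1 CPM in R111G/+ (difference of exchanges -3.31, adjusted p = 5.7e-05). Capza1-ps1 was low in every group but R111G/+. Another pseudogene, Rps3a3, was also high in all R111G/+ libraries (274 to 296 CPM) but varied within R111G/- (405, 4.86 and 4.88 CPM). The part of the mixed strain background in the Capza1-ps1 level was not tested.

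**Figure D5:**
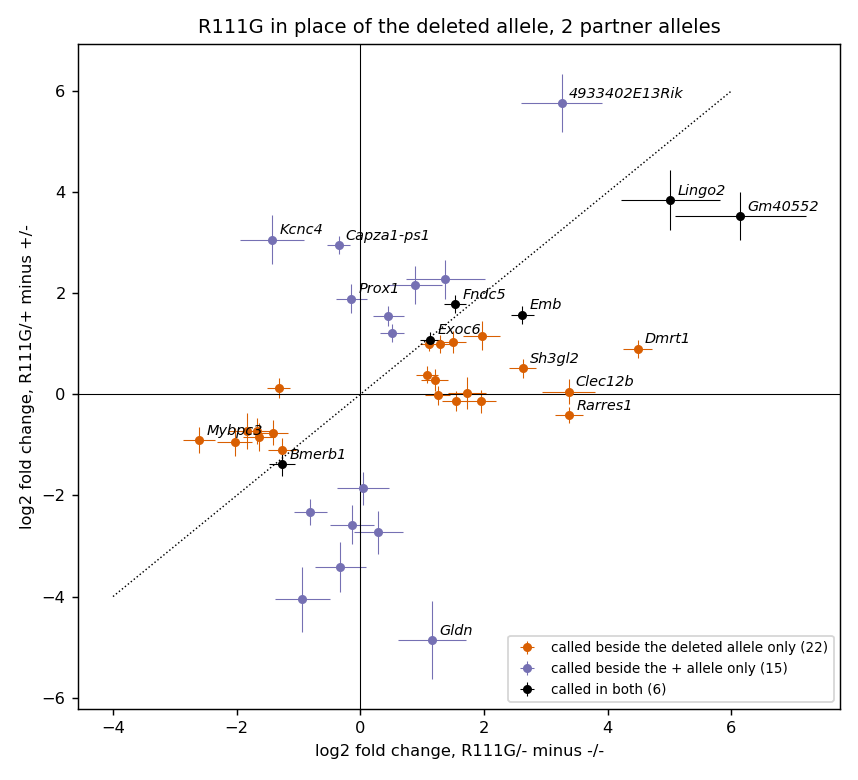
Log2 fold change (± SE) of R111G in place of the deleted allele beside a deleted allele (x axis) and beside a normal allele (y axis) for the 43 genes called in either, with a dotted line of equal change. Fndc5, Exoc6 and Bmerb1 lie near the line and Emb below it. Rarres1, Clec12b and Sh3gl2 lie nearer to zero on the y axis than on the x axis, and Prox1 and Capza1-ps1 near zero on the x axis.

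Chromosome 19, which carries Dmrt1, held 523 tested genes and 2 of the calls, Dmrt1 and Exoc6, whose midpoint lies 12.1 Mb beyond that of Dmrt1. With no fold limit 4 genes of the chromosome passed (0.765%, beside 0.259% over all genes): Dmrt1, Exoc6, the serine synthesis enzyme Psat1 (log2 fold change 0.56, 9.63 Mb before Dmrt1) and the ectonucleotidase Entpd1 (0.87, 15.1 Mb beyond). Both shares include Dmrt1, for which the genotypes set the direction. In R111G/+ against +/- the log2 fold change was 1.08 for Exoc6, 0.35 for Psat1 and 0.03 for Entpd1. In +/- against Dmrt1 -/- it was 0.61, 0.05 and 0.80 in the same order. The edit and the sequence linked to it come together on the R111G chromosome, and their parts in these genes were not tested.

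Of the 28 called genes 21 matched a RefSeq promoter (GRCm38, 250 bases before to 50 after the start). The letters ACATTGT, the core of the DMRT1 motif, occurred on either strand in 0 of these 21 and in 1.95% of the 11352 matched promoters of all genes tested. These letters contain ATTGT, which SOX motifs share, and their absence says only that they are not in this window.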

How the data were processed

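The authors trimmed reads with Trim Galore 0.6.0 and cutadapt 1.18, aligned them to GRCm38 with STAR 2.7.2a, and deposited strand-specific counts per gene, whole numbers with no normalization. Depth is the total count per library. The 12 P3 gonad libraries were fitted together (edgeR 4.0.16, R 4.3.3; filterByExpr, TMM, quasi-likelihood F test, Benjamini-Hochberg), and 6 P7 Sertoli libraries in a fit of their own. A gene was called at an adjusted p under 0.05 and more than 2-fold. CPM are TMM-scaled, SE was taken from the fold change and F statistic, and intervals are 95%. Named genes were all called genes, genes the study names, up to 4 per list, and up to 10 each from the R111G/+ and +/- comparisons. The members and gene lists were chosen with earlier results of these data known. Alternatives were DESeq2 1.42.0, other scalings, no filter, a replicate block, the 6 libraries alone and leaving out each replicate. The fit was tested on simulated data. Coordinates came from GENCODE M21 (15826 of 15837 tested genes matched). The Hi-C file and the authors' other libraries were not used here.

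The fit did not pair libraries by replicate number. Deviations of same-numbered R111G/- and Dmrt1 -/- libraries correlated between -0.16 and 0.15, and over all group pairs between -0.29 and 0.24. With 3 libraries a group this check cannot exclude a pairing. No 2 libraries of a group agreed within counting noise.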

Additional observations from a re-analysis of the deposited data

Results flagged for a closer look

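The effect of R111G in place of the deleted allele differed between partner alleles for 4 genes, by edgeR's test of the difference itself with Benjamini-Hochberg adjustment over 15837 genes. The log2 difference was 3.58 for Dmrt1, 3.78 for Rarres1, 2.11 for Sh3gl2 and -3.31 for Capza1-ps1, the first 3 larger beside the deleted allele. For Dmrt1 the design itself sets a difference, since the normal allele also makes its RNA. For the pseudogene Capza1-ps1 the part of the mixed strain background was not tested.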

How the results depend on the processing

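The count of 28 genes called between R111G/- and Dmrt1 -/- became 62 with DESeq2, 179 with no filter on low counts and 17 with only the 6 libraries compared. It ranged from 9 to 57 when 1 library was left out. For R111G/+ against +/- the 21 became 79 with DESeq2 and 189 with no filter (8 to 37 with 1 library left out), and the 4 genes that differed between exchanges became 33 and 175 (3 to 9). For +/- against Dmrt1 -/-, 81 became 127 with DESeq2 and 36 to 84 with 1 library left out, settings added after seeing the data. Scaling by DESeq2 size factors gave 30, 22 and 4, and by library totals 28, 22 and 4. The cause of these moves was not tested.

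Whether replicate numbers pair the libraries was not settled. With a replicate block the counts were 19, 14 and 4. Of the 28 genes 8 kept their call in all 12 settings, 20 lost it in 1 or more, and 0 changed sign. Genes under about 1 CPM rest on few counts, and 3 libraries a group leave wide intervals for genes that were not called.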

Other observations

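Some genes were on in some libraries of a genotype and nearly off in others. With 0.5 CPM added, 25 genes differed by 10-fold or more among the 3 R111G/- libraries and 22 among the 3 Dmrt1 -/- libraries, of 15837 tested, counting genes that reached 10 CPM. This rule was chosen after the data were seen, and none of the 28 called genes met it. The mice were of mixed 129Sv and C57Bl/6J background.

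Zfp990, a zinc finger gene of chromosome 4, was at 2.50, 45.6 and 37.3 CPM in R111G/- replicates 1, 2 and 3, at 2.12, 0.66 and 2.17 CPM in Dmrt1 -/-, and at 38.3, 33.2 and 37.8 CPM in +/-. In R111G/+ it was at 86.4, 2.01 and 81.9 CPM. Its log2 fold change between R111G/- and Dmrt1 -/- was 4.08 and did not pass the test (adjusted p = 0.34).

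Rps3a3, a processed pseudogene of a ribosomal protein gene on chromosome 13, was at 405 CPM in R111G/- replicate 1 and at 4.86 and 4.88 CPM in replicates 2 and 3. It was between 2.74 and 5.72 CPM in Dmrt1 -/- and between 274 and 296 CPM in R111G/+. Tmem163, a zinc transporter gene of chromosome 1, was at 40.1, 0.24 and 44.2 CPM in R111G/- and at 0.25, 28.02 and 0.23 CPM in Dmrt1 -/-. Both genes' groups overlapped.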
